A study of Homo sapiens with 2 samples.

Results

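This account covers 10 transcription factor genes: MYC, the FOS family (FOS, FOSB, FOSL1, FOSL2), the JUN family (JUN, JUNB, JUND), ATF3 and EGR1. They were taken by their Ensembl identifiers, through GENCODE release 44, from the 58735 genes of each count table, and all 10 had counts in both libraries. RNA came from MCF10a-Snail-ER cells, a line of non-tumorigenic human mammary epithelial cells that stably carries the epithelial repressor Snail fused to the estrogen receptor. The cells grew in medium with horse serum, EGF, insulin, hydrocortisone and cholera toxin, and had been in 100 nM tamoxifen for 1 day, which activates the fusion and starts an epithelial-to-mesenchymal transition. Polyadenylated RNA described as matched was read in 1 Nanopore direct RNA library, which passes native RNA strands through a pore, and in 1 Illumina TruSeq stranded mRNA library, made from fragmented and amplified cDNA. Both libraries carry the same line and treatment, and no untreated library was analysed here, so the comparison is between the 2 libraries and no value has a replicate.

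FOS and JUN proteins pair through leucine zippers to form the AP-1 transcription factor, in which FOS family proteins need a JUN partner while JUN proteins can also pair with each other. MYC pairs with MAX and drives growth genes, EGR1 is a zinc finger factor, and ATF3 is a stress-induced relative of the AP-1 proteins. Most of these genes are immediate early genes: growth factors such as EGF switch them on through ERK kinases and serum response factor without new protein synthesis, and their mRNAs are short-lived, in part through AU-rich elements in the 3′ UTR that the ZFP36 proteins bind. JUND is the family member known for steady expression, and FOSL1 is a factor linked to EGF signalling and to mesenchymal features in breast cells.

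Counts summed to 403235 in the Nanopore table and to 191741714 in the Illumina table. Expressed per 1000000 counts of its library (CPM), 1 count was thus worth 2.48 CPM in the former and 0.00522 CPM in the latter. All intervals and tests below cover counting error only. The basal mammary markers were present, with 6 of 6 detected by Nanopore and summed levels of 3251 CPM there and 3288 CPM in the Illumina library. Of the markers of other cell types, 2 of 5 fibroblast, 1 of 3 immune and 0 of 3 endothelial genes were detected by Nanopore. The summed levels of these lists were 27.3, 12.4 and 0 CPM by Nanopore and 33.6, 10.96 and 5.16 CPM by Illumina. They came mostly from DCN (24.8 and 26.5 CPM), CD14 (12.4 and 10.95 CPM) and, by Illumina, PECAM1 (5.07 CPM) and COL1A1 (4.93 CPM). The defining leukocyte and T cell genes PTPRC and CD3E had 0 Nanopore counts and 2 and 0 Illumina counts.

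The AU-rich pentamer ATTTA was searched on the transcript's strand in the 3′ UTR of each canonical transcript, and matches were allowed to overlap. All 10 genes held at least 1, as did between 53.0% and 98.9% of the protein-coding 3′ UTRs at least as long, cut to the length of each gene's 3′ UTR. FOS held 5 in 806 bases, and 7.52% of the 11286 protein-coding 3′ UTRs at least as long held as many in their first 806 bases. The other 9 genes held counts that at least 26.8% of 3′ UTRs of their length reached. JUNB held 2 in 500 bases (26.8% of 3′ UTRs cut to that length held as many), MYC 6 in 1993 (33.9%), ATF3 3 in 1220 (44.5%) and JUN 3 in 1284 (47.0%). FOSL2 held 9 in 4869 bases (63.1%), JUND 1 in 747 (66.6%), FOSL1 1 in 837 (70.1%), FOSB 3 in 2167 (70.4%) and EGR1 1 in 1222 (79.97%). The longer motif TTATTTATT, which contains the pentamer, occurred in FOS and FOSL2 only, against 3.93% and 21.2% of 3′ UTRs cut to their lengths. A 30-base stretch with the most pentamers is given here for the FOS and JUN families, because these 2 families are compared in detail. Where stretches tied, as in FOSB, JUN and JUNB, the first in the 3′ UTR is shown. Each ATTTA is in capitals, and all are transcript-strand sequences from GENCODE release 44 on hg38.
FOS (chr14:75282058-75282087, plus strand): tgtgtttttaATTTATTTAttaagatggat
FOSB (chr19:45473877-45473906, plus strand): cctgctggagtgATTTAtactgtgaaatga
FOSL1 (chr11:65892271-65892300, minus strand): agggcagctgctATTTAttttcctaaagag
FOSL2 (chr2:28416349-28416378, plus strand): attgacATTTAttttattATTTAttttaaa
JUN (chr1:58781335-58781364, minus strand): tccagaaaggatATTTAagaaaatacaata
JUNB (chr19:12793060-12793089, plus strand): atatatttgtgtATTTAacagggaggggaa
JUND (chr19:18279997-18280026, minus strand): cgattctgccctATTTAtgtttctactcgg
In the FOS stretch 2 pentamers share a base, in the FOSL2 stretch they stand apart, and each of the other stretches holds 1. A match describes the letters only.

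No response to serum was measured here. The EGR1 promoter is printed below as a textbook case of control by serum response factor. In the 250 bases before the RefSeq start, searched on both strands, it held 2 CArG boxes (the binding motif of that factor), starting 105 and 83 bases before the start. A CArG box was present in 1.16% of 35116 promoters cut to the same window, and in none of the windows of FOS, FOSB, FOSL2, JUN, JUNB, JUND and ATF3. Only exact matches within these 250 bases were counted. Boxes further upstream or with a mismatch were not searched for, so these genes may hold them. The core TGACG, part of the cyclic AMP response element, was present in 21.2% of promoters and in those of EGR1, FOS, FOSB, FOSL2, JUN, JUNB and JUND. The full element TGACGTCA, which contains that core, was present in 1.65% of promoters and, of the 8 genes searched, in JUND only. MYC and FOSL1 were not searched. The sequence is from RefSeq on GRCh38.p14, with the CArG boxes in capitals.
EGR1 (chr5:138465229-138465478, plus strand): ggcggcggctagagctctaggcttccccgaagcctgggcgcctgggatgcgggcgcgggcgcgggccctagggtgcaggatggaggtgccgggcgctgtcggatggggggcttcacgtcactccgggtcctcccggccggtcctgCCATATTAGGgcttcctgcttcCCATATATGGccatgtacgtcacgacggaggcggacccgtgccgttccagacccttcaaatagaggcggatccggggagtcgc

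As a group, these genes took up more of the Nanopore library than of the Illumina library: 686 counts, or 1701 CPM, against 130354 counts, or 680 CPM. The log2 ratio of Nanopore to Illumina, with 1 CPM added to each level, was above 0 for 8 of the 10 genes, against 36.8% of all 12414 genes whose CPM averaged 5 or more over the libraries, all of which were tested. Per length, with Illumina counts divided by canonical transcript length and rescaled to the same sum (TPM), it was above 0 for 9 of the 10, against 65.1% of those with a length. The median ratio was 1.08 over the 10 genes and −0.42 over all tested genes. A gene under 5 CPM in 1 library met the average of 5 CPM only by exceeding 5 CPM in the other. The filter thus fixed the direction of its ratio in CPM, also in the lists below. Among the 10 genes this holds for ATF3, at 2.91 CPM by Illumina and 3 Nanopore counts. With an average of at least 20 CPM, which leaves ATF3 out, 7 of 9 genes were above 0. Their median was 1.05, beside −0.46 over all genes tested there. Differences were tested with an exact binomial test on the counts of the 2 libraries, adjusted over all tested genes by the Benjamini-Hochberg method. By it 6 of the 10 genes were higher by Nanopore (adjusted p under 0.05; 20.2% of all tested genes) and none was higher by Illumina (27.2%). With a ratio of at least 4-fold as well, 4 genes, FOS, FOSB, JUNB and JUND, were higher by Nanopore (12.9%) and none by Illumina (7.31%). With the same test per length, 8 of the 10 were higher by Nanopore (31.4% of the 12350 genes with a length) and none by Illumina (9.86%). Both are tests between 2 single libraries and say nothing of how far other libraries from these platforms would vary.

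**Figure D1:**
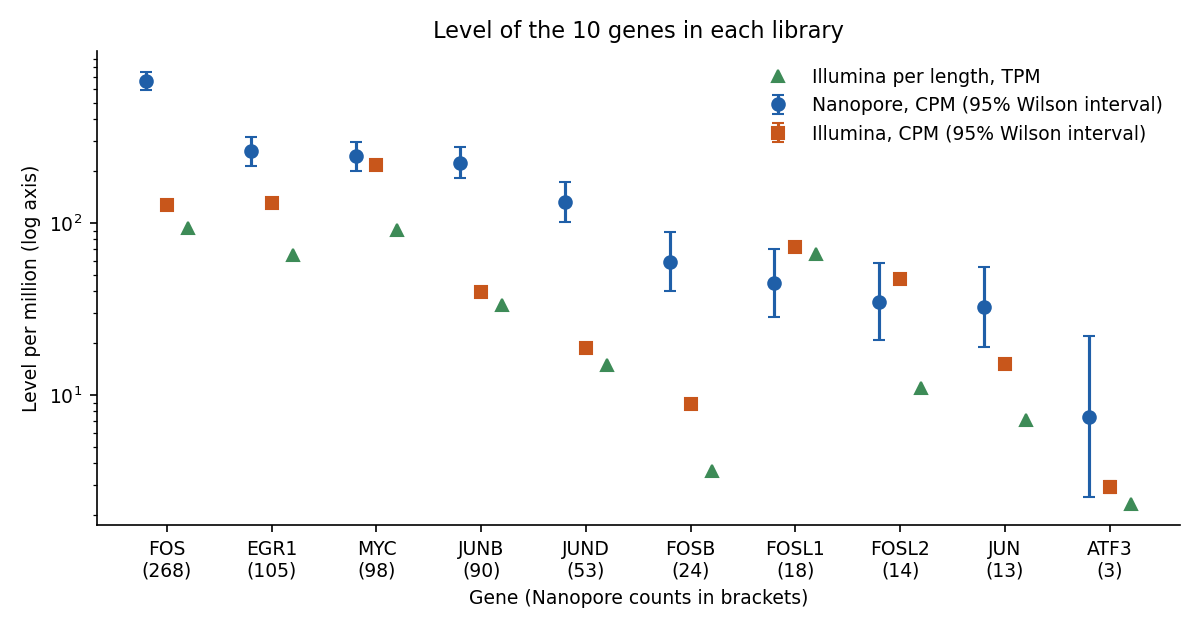
Level of each gene per 1000000 on a log axis, in order of the Nanopore level: Nanopore CPM (circles) and Illumina CPM (squares) with 95% Wilson intervals, and Illumina counts divided by canonical transcript length (TPM, triangles, without an interval). FOS, JUNB, JUND and FOSB stand well above their Illumina values, while MYC, FOSL1 and FOSL2 have Illumina CPM within their Nanopore intervals or just above.

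FOS (ENSG00000170345, chromosome 14, 75278826 to 75282230, hg38), the inducible AP-1 subunit, had 268 Nanopore counts and 24388 Illumina counts. That was 665 CPM by Nanopore (95% Wilson interval 590 to 749) against 127 CPM by Illumina (126 to 129), a 5.23-fold difference (exact interval 4.62 to 5.89). FOS was the most abundant of the 10 genes by Nanopore, and its log2 ratio was 2.38 (exact binomial adjusted p = 4.85e-98). It overlaps no other annotated gene, and the ratio stayed between 2.108 and 2.81 over the 10 alternative settings.

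FOSB (ENSG00000125740, chromosome 19, 45467995 to 45475179), the close relative of FOS, was far rarer, with 24 Nanopore and 1694 Illumina counts. By Nanopore its level was 59.5 CPM (39.998 to 88.6), against 8.83 CPM (8.42 to 9.27) in the Illumina library. The log2 ratio was 2.62 (exact binomial adjusted p = 1.80e-11). The body of ERCC1, a DNA repair gene with 62 Nanopore and 40314 Illumina counts, spans FOSB on the opposite strand, but no exon of ERCC1 overlaps one of FOSB. The strand setting of the counting is not given, so reads of the 2 genes cannot be told apart with certainty, and FOSB was not among the genes testable without overlap.

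FOSL1 (ENSG00000175592, chromosome 11, 65892049 to 65900573), which encodes FRA-1, had a lower level by Nanopore, though not past the test. It had 18 Nanopore counts, 44.6 CPM (28.2 to 70.6), and 13855 Illumina counts, 72.3 CPM (71.1 to 73.5). The log2 ratio was −0.68 (exact binomial p = 0.0377, adjusted p = 0.0745), and the Nanopore level was 0.618 times that of Illumina, with an exact interval of 0.366 to 0.977 before adjustment. The ratio of FOSL1 was below 0 under all 10 alternatives, and it passed the adjusted threshold only with Illumina counts divided by union exonic length (−1.20, exact binomial adjusted p = 0.00024).

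FOSL2 (ENSG00000075426, chromosome 2, 28392448 to 28417317), which encodes FRA-2, had 14 Nanopore counts, 34.7 CPM (20.7 to 58.3), and 9033 Illumina counts, 47.1 CPM (46.1 to 48.1). Its log2 ratio was −0.43 (exact binomial adjusted p = 0.418) and the exact interval of the fold ran from 0.403 to 1.24. At 6713 bases its canonical transcript is the longest of the set. Its ratio turned to 1.59 when Illumina counts were divided by that length. The antisense FOSL2-AS1 had 3 Nanopore counts and no Illumina count.

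The make-up of the FOS family differed between the libraries, a comparison that does not depend on how they are scaled. By Nanopore, FOS held 82.7% of the 324 family counts (95% Wilson interval 78.2 to 86.4%), FOSB 7.41% (5.03 to 10.8%), FOSL1 5.56% (3.54 to 8.61%) and FOSL2 4.32% (2.59 to 7.12%). By Illumina, FOS held 49.8% of 48970 counts, FOSB 3.46%, FOSL1 28.3% and FOSL2 18.4%. Fisher's exact tests of the counts, two-sided and adjusted over the 7 genes of both families, gave adjusted p-values of 1.15e-33 for FOS, 1.05e-24 for FOSL1, 1.40e-13 for FOSL2 and 0.000861 for FOSB. A long Illumina transcript gives more fragments, so the Illumina shares were also taken per length: FOS 53.8%, FOSB 2.08%, FOSL1 37.8% and FOSL2 6.25%. Division by canonical length brought FOSL2 inside its Nanopore interval and moved FOSL1 further from it. These shifts depend on the length used: the FOSL1 share was 44.3% by union exonic length and 29.2% by mean transcript length. For each FOSL1 count there were 14.9 FOS counts by Nanopore, against 1.42 per length by Illumina.

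**Figure D2:**
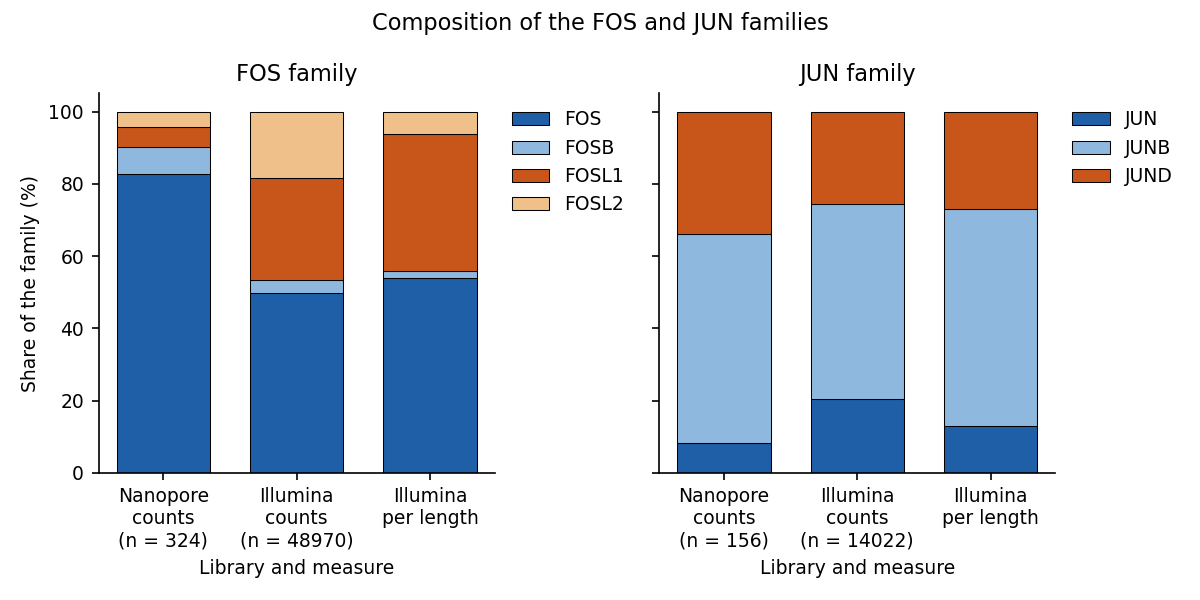
Stacked bars of each gene's share (%) of its family: Nanopore counts, Illumina counts and Illumina counts per canonical transcript length, for the FOS family (left) and the JUN family (right). FOSL1 takes 5.56% of the FOS family by Nanopore and 37.8% by Illumina per length, while JUNB leads the JUN family in all 3 bars.

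JUNB (ENSG00000171223, chromosome 19, 12791486 to 12793315), an inducible JUN relative encoded by a single exon, led its family in both libraries. It had 90 Nanopore counts, 223 CPM (182 to 274), and 7572 Illumina counts, 39.5 CPM (38.6 to 40.4). The log2 ratio was 2.47 (exact binomial adjusted p = 1.02e-35), and it fell to 1.92, under the 4-fold threshold, with Illumina counts divided by union exonic length. JUNB lies within the body of HOOK2, which runs on the opposite strand and shares 259 exonic bases with it. HOOK2 had 213 Nanopore and 2978 Illumina counts, or 528 and 15.5 CPM, so both genes had higher levels in the Nanopore library. The part of overlapping reads in the JUNB count was not tested.

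JUND (ENSG00000130522, chromosome 19, 18279694 to 18281622), also a single-exon gene, had 53 Nanopore counts, 131 CPM (100.5 to 172), and 3574 Illumina counts, 18.6 CPM (18.04 to 19.3). Its 7.05-fold difference (exact interval 5.27 to 9.24) was the largest of the 10 genes in CPM, with a log2 ratio of 2.75 (exact binomial adjusted p = 1.82e-25). The exact interval of FOSB (6.74-fold, 4.30 to 10.06) contains that of JUND, so their order is not set by these counts. Per length the log2 ratio was 3.71 for FOSB and 3.05 for JUND. JUND overlaps no annotated gene. Its canonical transcript is 69.9% G and C, more than 99.6% of the tested genes with a sequence, and that of JUNB, at 64.9%, ranks at 96.6%. Among all tested genes the median log2 ratio was −0.14 in the richest of 5 equal groups by G and C (57.9 to 85.5%) and between −0.38 and −0.56 in the other groups. The part of base composition in the JUNB and JUND ratios was not tested.

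JUN (ENSG00000177606, chromosome 1, 58776845 to 58784048), the founding member and again a single exon in its canonical form, was the rarest of its family. It had 13 Nanopore counts, 32.2 CPM (18.8 to 55.2), and 2876 Illumina counts, 14.999 CPM (14.5 to 15.6). The log2 ratio of 1.05 passed narrowly (exact binomial adjusted p = 0.0411), and the adjusted p rose to 0.0789 when every gene with a count was tested. Within the family, JUN held 8.33% of 156 Nanopore counts (4.93 to 13.7%), JUNB 57.7% (49.8 to 65.2%) and JUND 34.0% (27.0 to 41.7%). By Illumina per length the shares were 12.8%, 60.2% and 26.96%. Those of JUN and JUNB lay inside the Nanopore intervals and that of JUND just under the lower bound of 27.01%. On the undivided counts Fisher's exact adjusted p-values were 9.53e-05 for JUN, 0.0241 for JUND and 0.375 for JUNB.

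MYC (ENSG00000136997, chromosome 8, 127735434 to 127742951) was close to equal in CPM. It had 98 Nanopore counts, 243 CPM (199 to 296), and 41721 Illumina counts, 218 CPM (216 to 220), a ratio of 1.12-fold with an exact interval of 0.907 to 1.36. Its log2 ratio was 0.16 (exact binomial adjusted p = 0.416). With Illumina counts divided by the canonical length of 3721 bases the ratio was 1.41 and passed (exact binomial adjusted p = 7.64e-16), beside a median of 0.48 over all tested genes on that scale. The antisense lncRNA CASC11, which shares 194 exonic bases with MYC, had 0 Nanopore and 22 Illumina counts.

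EGR1 (ENSG00000120738, chromosome 5, 138465479 to 138469303), the gene of the promoter above, was the second most abundant by Nanopore. It had 105 Nanopore counts, 260.4 CPM (215 to 315), and 25083 Illumina counts, 131 CPM (129 to 132). The difference was 1.99-fold (exact interval 1.63 to 2.41), with a log2 ratio of 0.99 (exact binomial adjusted p = 2.36e-09). EGR1 has 1 annotated transcript and overlaps no other gene.

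ATF3 (ENSG00000162772, chromosome 1, 212565334 to 212620777) had the fewest counts of the set in both libraries. It had 3 Nanopore counts, 7.44 CPM (2.53 to 21.9), and 558 Illumina counts, 2.91 CPM (2.68 to 3.16). No difference was detectable at this depth (log2 ratio 1.11, exact binomial adjusted p = 0.339; exact interval of the fold 0.526 to 7.51).

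Levels were then ordered within each library, by CPM for Nanopore, where a read stands for a strand, and by TPM for Illumina. The Nanopore order was FOS, EGR1, MYC, JUNB, JUND, FOSB, FOSL1, FOSL2, JUN and ATF3. The intervals of EGR1, MYC and JUNB overlapped each other, as did those of FOSB, FOSL1, FOSL2 and JUN, and that of ATF3 overlapped those of FOSL2 and JUN, so the order within each of these runs is not set by these counts. Per length by Illumina, FOS (93.7 TPM) and MYC (90.6) came first, then FOSL1 (65.8), EGR1 (64.6), JUNB (33.4), JUND (14.98), FOSL2 (10.9), JUN (7.14), FOSB (3.63) and ATF3 (2.32). FOSL1 thus had rank 3 by Illumina and rank 7 by Nanopore, and FOSB ranks 9 and 6. Counting error is small at these Illumina depths, but the choice of length is not: with union exonic length EGR1 had rank 1 and MYC rank 4, while FOSL1 had rank 3 under all 3 lengths tried.

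The FOS family as a whole outweighed the JUN family in both libraries. Summed over its 4 genes, it stood at 804 CPM by Nanopore against 387 CPM for the 3 JUN genes, and per length by Illumina at 174 TPM against 55.6 TPM. The canonical transcripts of the genes that passed the 4-fold threshold measured 1830 bases for JUNB, 1929 for JUND, 2104 for FOS and 3775 for FOSB, the longest of the 10 after FOSL2. When tested genes were split by length into 5 groups alike in number, that of 1285 to 2308 bases, which also holds FOSL1 and ATF3, had a median log2 ratio of −0.20. For 3551 to 5374 bases, the group of FOSB and MYC, it was −0.81. FOS, JUNB and JUND lay more than 2 above, and FOSB more than 3 above, the median of genes of like length, while FOSL1 lay below it.

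**Figure D3:**
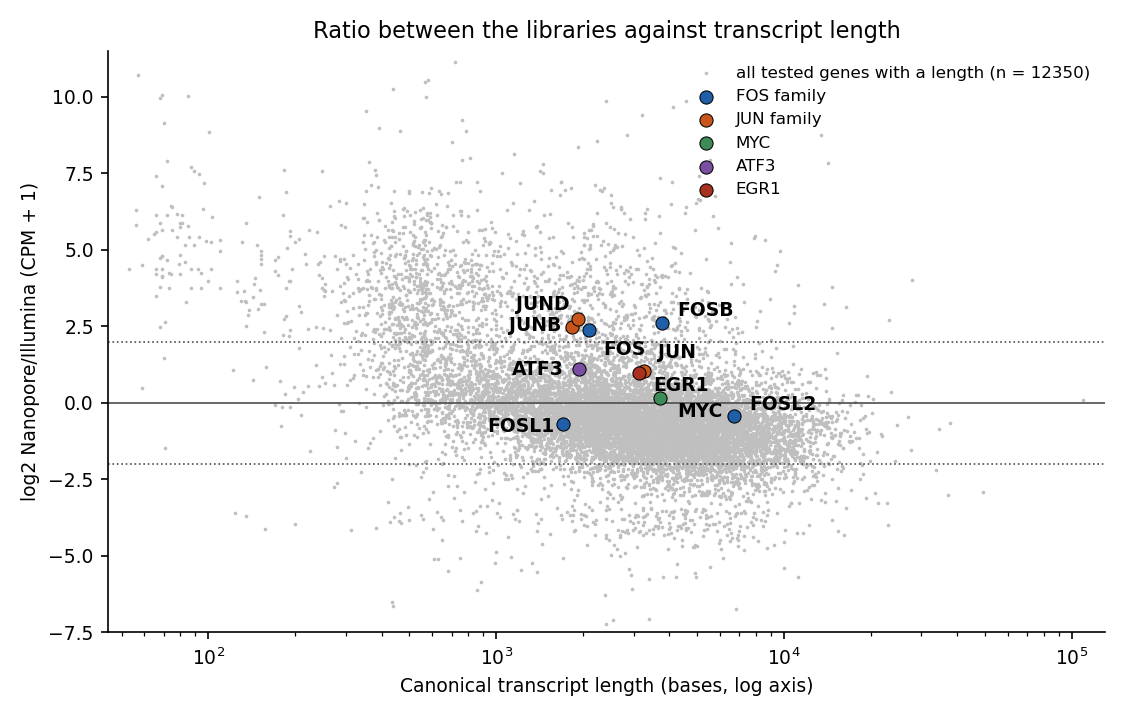
The log2 ratio of Nanopore to Illumina (CPM + 1) against canonical transcript length on a log axis, for all 12350 tested genes with a length (grey) and the 10 genes (coloured by family); dotted lines mark 4-fold. FOSB, JUND, JUNB and FOS lie above the upper line and FOSL1 and FOSL2 below 0.

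Of 36 further immediate early genes, 30 were tested, and 13 were higher by Nanopore (adjusted p under 0.05; 20.2% of all tested genes) while 5 were higher by Illumina (27.2%). Their median log2 ratio was 0.43, beside −0.42 for all tested genes. Per length, 16 were higher by Nanopore (53.3%, against 31.4% of all genes) and 2 by Illumina (6.67%, against 9.86%). Of the 13 in CPM, EGR3, NR4A1 and NR4A2 stood at only 0.98, 3.36 and 4.50 CPM by Illumina. Being under 5 CPM there, they entered the test only through their Nanopore levels, which fixed the direction of their ratios. NR4A1, an inducible orphan nuclear receptor, had the highest ratio, 4.45, with 38 Nanopore counts, 94.2 CPM, against 645 Illumina counts, 3.36 CPM (exact binomial adjusted p = 7.96e-39). DUSP1, the phosphatase that switches off MAP kinases, was the most abundant by Nanopore, at 729 CPM from 294 counts against 253 CPM by Illumina (log2 ratio 1.52). IER3, a stress-inducible survival gene in the HLA region of chromosome 6, had the lowest ratio, −2.94, with 6 Nanopore and 23248 Illumina counts. The genes of this list therefore did not all lie on the Nanopore side.

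The other 5 lists are read beside the shares of all tested genes, of which 20.2% passed the test on the Nanopore side and 27.2% on the Illumina side in CPM, and 31.4% and 9.86% per length. Of 19 tested genes among 23 other leucine zipper factors, 3 were higher by Nanopore and 7 by Illumina, with a median log2 ratio of −0.74, while per length these numbers were 5 and 1 (26.3% and 5.26%, near the shares of all genes). DDIT3, the stress factor CHOP, was the highest at 3.17 (23 Nanopore and 1042 Illumina counts), CEBPB the most abundant by Nanopore at 228 CPM against 82.7 CPM, and NFE2L1, a regulator of proteasome genes, the lowest at −1.88. Of 24 tested genes of ERK, JNK and SRF signalling, 1 was higher by Nanopore, the ERK1 gene MAPK3 (log2 ratio 1.05), and 15 were higher by Illumina. In that list EGFR, the receptor for EGF, had most Nanopore counts (126 CPM against 189 CPM by Illumina, log2 ratio −0.58), and ELK1, a partner of serum response factor, the lowest ratio (−2.65). Per length the split of this list was 5 to 2 (20.8% and 8.33%), and its median 0.58 in place of −0.99, beside medians of 0.48 and −0.42 over all tested genes.

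In the MYC network 12 of 14 genes were tested, and 3 were higher by each library, with a median log2 ratio of −0.61, and per length 4 were higher by Nanopore (33.3%) and 0 by Illumina. In CPM and for Nanopore per length these are near the shares of all genes. MXD3, which competes with MYC for MAX, had most Nanopore counts (137, 340 CPM against 132 CPM by Illumina), and MXD1, of the same family, had the highest ratio (2.04). MGA, a very long transcript that encodes a MAX-binding repressor, had 0 Nanopore counts. In CPM its Illumina level of 14.7 was 1.98 times a floor of 3 Nanopore counts (7.44 CPM). The median was −0.61 with MGA at that floor too. The upper Wilson bound of MGA by Nanopore was 9.53 CPM, above that floor. Per length its Illumina level was 1.87 TPM, under the 2.48 CPM that 1 Nanopore count was worth. On that scale 0 counts cannot show a lower level. Per length the median of this list was 0.90, beside 0.48 over all tested genes.

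The AU-rich element binding proteins and deadenylases, which act on mRNAs of the FOS and MYC kind, were all tested: 1 of 14 was higher by Nanopore and 6 by Illumina, with a median log2 ratio of −0.46, close to the −0.42 of all tested genes. Per length 9 were higher by Nanopore (64.3%, against 31.4% of all genes) and 0 by Illumina (9.86%). In CPM the 1 gene was ZFP36, itself an immediate early gene, with 72 Nanopore counts, 179 CPM, against 33.7 CPM by Illumina (log2 ratio 2.37, exact binomial adjusted p = 4.60e-27). HNRNPD, the AU-rich binding protein AUF1, was the most abundant by Nanopore (246 CPM against 516 CPM), and the deadenylase PARN had the lowest ratio (−2.37). Of 12 tested genes among 14 known targets of MYC and AP-1, 1 was higher by Nanopore and 9 by Illumina, with a median of −0.85, and per length 1 and 6 (8.33% and 50.0%, against 31.4% and 9.86% of all genes). The nucleolar methyltransferase gene FBL had the lowest ratio (−2.36). NPM1, a nucleolar protein, was the most abundant (2800 CPM by Nanopore, 3428 CPM by Illumina), and HMOX1, with 5 Nanopore counts, had the highest ratio (1.15) but did not pass (exact binomial adjusted p = 0.187).

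**Figure D4:**
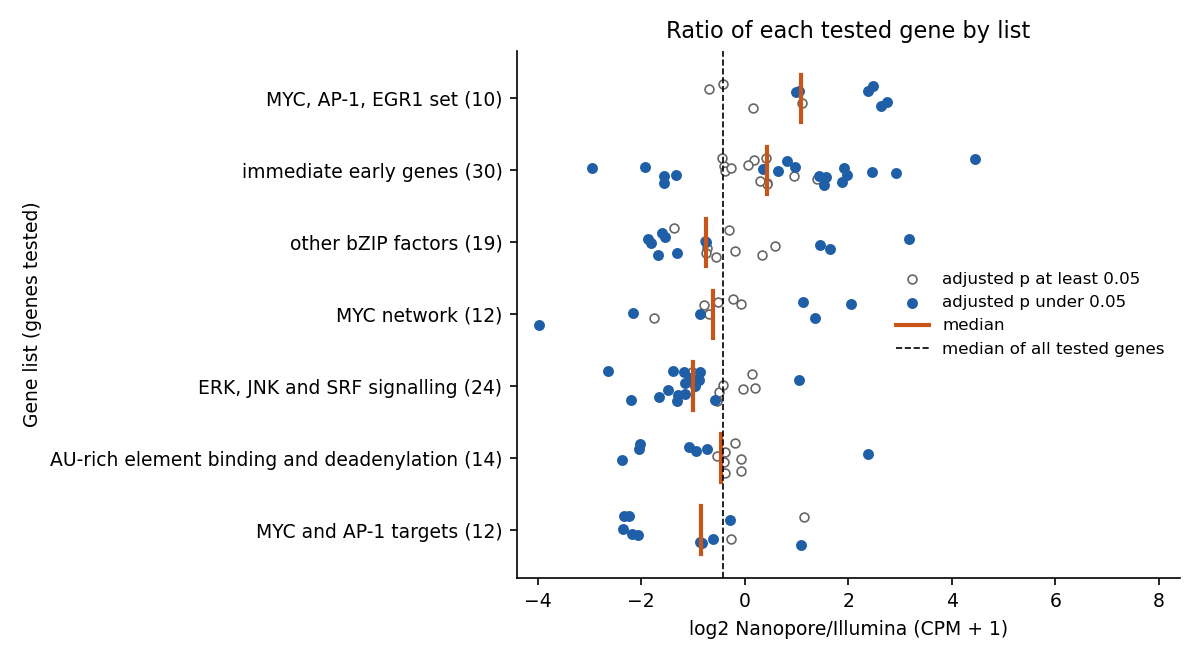
The log2 ratio of Nanopore to Illumina (CPM + 1) for each tested gene, by list; filled points passed the exact test at an adjusted p under 0.05, bars are list medians and the dashed line is the median of all tested genes (−0.42). The medians of the MYC, AP-1 and EGR1 set (1.08) and of the further immediate early genes (0.43) lie to the right of that line, and those of the other 5 lists lie to its left. This holds in CPM only. Per length, which is not drawn, the median of all genes was 0.48. The MYC network (0.90), AU-rich (0.88) and ERK, JNK and SRF (0.58) lists were then above it. The other leucine zipper factors (0.22) and the targets (−0.43) were below it.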

How the data were processed

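The authors deposited raw whole-number counts per Ensembl gene for each library, without normalization. Per the submitters' processing notes, minimap2 2.11-r797, HISAT2 2.1.0, featureCounts and hg38 were used. The names of the deposited counts pair minimap2 with the Nanopore library, HISAT2 with the Illumina library and featureCounts with both. The annotation release and the settings for strand and overlapping or multiply mapped reads are not given in the sources used here. The suffix of the Nanopore column is not explained, so a correction of long reads by short reads before counting would leave the 2 libraries dependent, and this was not tested.

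Identifiers were matched to GENCODE release 44 on hg38 (58207 of 58735). Counts were divided by library totals (CPM). With 1 library per platform no quasi-likelihood model could be fitted, so genes averaging 5 CPM or more over the libraries were tested by a two-sided exact conditional binomial test, with Benjamini-Hochberg adjustment over all of them, in Python 3.11.15 with scipy 1.17.1. The test was checked on simulated counts that varied by counting error only. That check does not cover other variation between libraries or platforms. TMM factors came from edgeR 4.0.16. Illumina TPM used the Ensembl canonical transcript length. The 10 genes and all lists were chosen with earlier results of these data known. Beyond the 10 genes, each list's highest and lowest ratio and its most counted gene by Nanopore are named. So are overlapping genes with at least 5 counts. FOSL2-AS1, EGR3, NR4A2 and the 6 single markers of other cell types were named after their values were seen. Wilson and exact intervals are at 95% and cover counting error only, since amplified reads are not independent molecules.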

Additional observations from a re-analysis of the deposited data

How the results depend on the processing

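Scaling, length, pseudocount and filter were changed 1 at a time. FOS, FOSB and JUND were called 4-fold higher by Nanopore under every alternative that tested them. None of the 10 genes was called 4-fold higher by Illumina under any alternative. FOSL1 passed the test on the Illumina side with union exonic length only, at less than 4-fold (log2 ratio −1.20). Restricted to genes without overlap, the number called higher by Nanopore fell from 4 to 2, FOS and JUND, because FOSB and JUNB are left out; 3.06% of the 2810 genes were called so. JUN (2.03 and 2.30) and EGR1 (2.36, mean length only) passed 4-fold with canonical or mean transcript length. FOSL2 reversed per length, to 1.59 (canonical), 0.92 (union) and 1.04 (mean). The median ratio of the 10 genes, 1.08, became 1.19 with median-ratio scaling, 2.01, 1.48 and 2.20 per canonical, union and mean length, and 1.21 and 0.93 with pseudocounts of 0.1 and 5 CPM; the same settings moved the median of all tested genes by 0.12, 0.90, 0.84, 0.49, −0.01 and 0.06. Of 111 list genes, 6 were called higher by Nanopore and 13 by Illumina, against 12.9% and 7.31% of all genes. These became 16 and 3 (canonical; 15.6% and 2.53% of all genes), 11 and 3 (union; 15.1% and 3.09%) and 13 and 6 (mean length; 13.5% and 3.4%), 2 and 4 of 36 without overlap (3.06% and 8.9%), and 6 by Illumina with a pseudocount of 5 (3.62%). The Illumina share of FOSL1, 37.8%, was 28.3% undivided, 44.3% by union and 29.2% by mean length, above the Nanopore interval each time; that of JUND, 27.0%, was 25.5% undivided and 36.8% by mean length. The cause of these shifts was not tested. The Nanopore depth limits genes of few counts: ATF3, JUN, FOSL2 and FOSL1 had 18 or fewer. No paired analysis was possible because there is 1 library per group.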
